A study of Mus musculus with 4 samples.

Results

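Plasmacytoid dendritic cell (pDC) genes were followed in single-cell RNA sequencing of mouse hematopoietic progenitors. The 7 genes were Siglech, Tcf4, Ccr9, Klk1, Cox6a2, Ly6d and Runx2, found by their symbols among the 27998 genes of the count tables, and 7 of 7 were present. They were chosen by name with measured levels of these same cells in view, so their levels across cell classes and their co-detection are given as a description, with no test. Earlier results of the comparison of knockout with control were also known at that time, and the tests given for it are no independent evidence that these genes move together.

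pDCs are dendritic cells that sense viral nucleic acids through endosomal Toll-like receptors and secrete large amounts of type I interferon. They develop in the bone marrow from Flt3-dependent progenitors, along both myeloid and lymphoid routes. The E protein Tcf4 (E2-2) drives and maintains the lineage, and the inhibitor Id2 opposes it.

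The cells were sorted from bone marrow as LSK (Lin-Sca1+cKit+), a gate that holds hematopoietic stem cells and multipotent progenitors and that selects against mature cells. There were 2 control libraries (Nup358 fl/fl, given as wild-type in the deposited labels) and 2 Nup358 knockout libraries (Nup358 fl/fl with R26-CreERT2), each from a pool of 3 mice aged 9 to 12 weeks (strain not given in the sources used here). Nup358 (gene Ranbp2) is a nuclear pore component, and its exon 2 is flanked by loxP sites in both genotypes. In the knockout mice a constitutively expressed, tamoxifen-regulated Cre recombinase deletes it after tamoxifen on 3 consecutive days, which the study's bone marrow experiments gave to both genotypes; the deletion is not restricted to blood cells, the controls carry no Cre, and loss of Nup358 and presence of Cre therefore cannot be told apart.

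Unique molecular identifiers (UMIs) count captured RNA molecules, and a level is given in CPM, the UMIs of a gene per 1000000 UMIs of the same cells. Of 25242 deposited barcodes, 24973 passed the filters on cells. The libraries shared 6680 barcode sequences, and a barcode was treated as a copy and left out where a second library held it with 3 or more times its UMIs. Copies made up 14.8% of the barcodes of control replicate 1, 81.8% of control replicate 2, 65.3% of knockout replicate 1 and 18.8% of knockout replicate 2. The kept cells numbered 7830 and 1200 in control and 1589 and 3422 in knockout, 14041 in all. Their median depth was 6251 and 13175.5 UMIs per cell in control and 17707 and 14398.5 in knockout, so shares of cells with a UMI are also given at 1 depth. Clusters 12, 13, 15 and 18, picked for this split, held 82.2% and 74.4% of the kept cells of control and knockout replicate 2 but 0.409% and 1.26% of those of control and knockout replicate 1, and whether this marks a batch was not tested. Control replicate 2 rests on few cells, and its copied barcodes held 7 Siglech and 5 Klk1 UMIs where its kept cells held 0 of either. Reads of Ranbp2 at the 3′ end lie outside the deleted exon, so its level, 101 to 127 CPM in the 4 libraries, checks nothing.

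The genes differ in kind. Siglech encodes a surface receptor of the Siglec family used to identify mouse pDCs, and it lies at chr7:55768178-55778925 on the plus strand (GRCm38). Ccr9, a chemokine receptor for homing to gut and thymus, spans chr9:123678439-123784330 on the plus strand. Klk1 encodes a tissue kallikrein, a secreted serine protease, at chr7:44225360-44229618 on the plus strand. Cox6a2 encodes the heart and muscle isoform of a cytochrome c oxidase subunit, at chr7:128205435-128206387 on the minus strand. Ly6d encodes a GPI-anchored surface protein that marks B lineage-biased lymphoid progenitors, at chr15:74762056-74763620 on the minus strand. Tcf4 encodes a basic helix-loop-helix transcription factor, and Runx2 a Runt-domain transcription factor also needed in bone, at chr17:44495987-44814797 on the minus strand. Klk1b27 and Klk1b9 were the only 2 of 13 Klk1b paralogs with UMIs, with 54 and 1, and 40 of the 54 were in the pDC-like cells described below. Runx2 overlaps Runx2os1 and Supt3 on the opposite strand, with 769 and 5507 UMIs, and Cox6a2 overlaps Itgad, with 28. Ccr9, with 205 UMIs in all, overlaps Lztfl1, with 4769, and Slc6a20a, with 4, both on the opposite strand. How reads shared between such genes were divided was not tested.

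Tcf4 and its partners bind E-boxes, the motif CANNTG. The promoters of the 3 genes with the largest share of their UMIs in the pDC-like cells are shown for that reason, from 250 bases before to 50 bases after the RefSeq start (GRCm38.p6), with CANNTG in capitals. They cover chr7:55767934-55768233 for Siglech, chr9:123766961-123767260 for Ccr9 and chr7:44225110-44225409 for Klk1, each on the plus strand. The RefSeq start used for Ccr9 lies inside the longer gene span given above.
Siglech: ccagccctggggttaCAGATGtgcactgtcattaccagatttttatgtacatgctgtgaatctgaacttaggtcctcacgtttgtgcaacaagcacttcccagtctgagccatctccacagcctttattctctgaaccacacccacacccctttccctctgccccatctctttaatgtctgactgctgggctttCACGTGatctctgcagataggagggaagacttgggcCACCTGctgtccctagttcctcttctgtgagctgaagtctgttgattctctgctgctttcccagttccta
Ccr9: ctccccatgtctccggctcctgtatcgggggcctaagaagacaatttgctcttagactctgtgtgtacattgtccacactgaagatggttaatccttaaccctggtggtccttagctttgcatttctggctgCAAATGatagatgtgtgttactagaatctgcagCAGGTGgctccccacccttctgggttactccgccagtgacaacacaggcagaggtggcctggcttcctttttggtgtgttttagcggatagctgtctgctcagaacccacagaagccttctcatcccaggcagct
Klk1: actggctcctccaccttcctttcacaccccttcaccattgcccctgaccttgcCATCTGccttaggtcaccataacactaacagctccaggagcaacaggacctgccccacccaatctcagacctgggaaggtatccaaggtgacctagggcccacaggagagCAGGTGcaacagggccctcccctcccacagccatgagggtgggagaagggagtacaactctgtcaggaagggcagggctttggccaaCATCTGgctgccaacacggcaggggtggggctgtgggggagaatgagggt
Siglech and Klk1 held 3 matches each and Ccr9 held 2. The motif is its own reverse complement in its fixed letters, so both strands were read at once. CANNTG occurs in 72.3% of 32851 promoters of this length, and 17.6% have 3 or more. Each of the 3 promoters also held 1 match to CACCTG or CAGGTG, which 20.2% of the promoters hold. A promoter was on hand for 4 of the 7 genes, the other being Runx2.

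The clustering was made without the 7 genes among the variable genes. A small mixed cluster of 237 cells was clustered again into 9 sub-clusters, and 2 of them, of 29 and 44 cells, were called pDC-like from 30 other pDC markers. This naming rule was set after the data had been seen. In the 73 pDC-like cells, 30 of 30 markers were at least 2-fold above the other cells, with a median log2 ratio of 5.48. The same list gave these cells their name, so this count was largely fixed by the naming and supports nothing by itself. Of the genes given next, Bst2, Irf8, Tlr7 and Irf7 are on that list and Unc93b1 is not. Bst2, the interferon-induced tetherin that serves as a pDC surface marker, and Irf8, a transcription factor of dendritic and monocytic cells, each had a UMI in 73 of 73 cells. Neither is particular to them. At a higher median depth, Bst2 had a UMI in 74.9% of the other cells and Irf8 in 35.1%. In neutrophil-like cells the shares were 87.3% and 64.1%. The endosomal sensor Tlr7 stood at 218 CPM against 2.33 elsewhere, its chaperone Unc93b1 at 736 against 45.9, and Irf7, the main inducer of interferon genes, at 747 against 32.2.

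The pDC-like cells lacked counts of a gene of the sort. Kit, the gene for cKit, had 0 UMIs in them, as did Cd34 and Mpo, while Kit had a UMI in 53.4% of the other cells. Ly6a, the gene for Sca1, had 391 UMIs in 60 of the 73 cells. The median depth was 2311 UMIs per cell against 9238 elsewhere, and a count of 0 over the 173947 UMIs of the 73 cells allows a Kit level of up to 17.2 CPM, where the other cells stood at 88.2. Of the marker lists of other cells, 7 of 7 megakaryocyte and erythrocyte genes, 5 of 5 basophil genes, 7 of 9 neutrophil genes, 5 of 7 stem cell genes, 6 of 7 T cell genes, 7 of 10 B cell genes, 3 of 5 NK cell genes and 4 of 7 monocyte genes were at 0. Some genes of these lists were at least 2-fold higher than elsewhere, 2 of 7 monocyte genes (483 against 209 CPM for the summed list), 2 of 7 early lymphoid genes, 2 of 10 B cell genes and 1 of 5 NK cell genes. The level that 3 counts would give, 17.2 CPM, is close to the summed level of the whole T cell list in the other cells, 18.1, so a count of 0 says little for genes this low. Conventional dendritic genes were at least 2-fold higher for 8 of 11, and Toll-like receptor and interferon pathway genes for 9 of 14. Tlr7, Tlr9 and Irf7 of the latter list were also on the list that named the cells.

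The 7 genes were higher in pDC-like cells than in any other named class, although a single B cell-like cluster, given below, held more Ly6d. Siglech stood at 2116 CPM in pDC-like cells and 1.02 in the others, Klk1 at 1196 against 0.621, and Ccr9 at 592 against 0.621. Cox6a2 stood at 1805 against 4.16 and Ly6d at 2777 against 31.3. Tcf4 and Runx2 were expressed widely, with 2759 against 113 and 1190 against 55.4. Counts at the 3′ end are not corrected for length, so these levels compare cells and not genes.

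**Figure D1:**
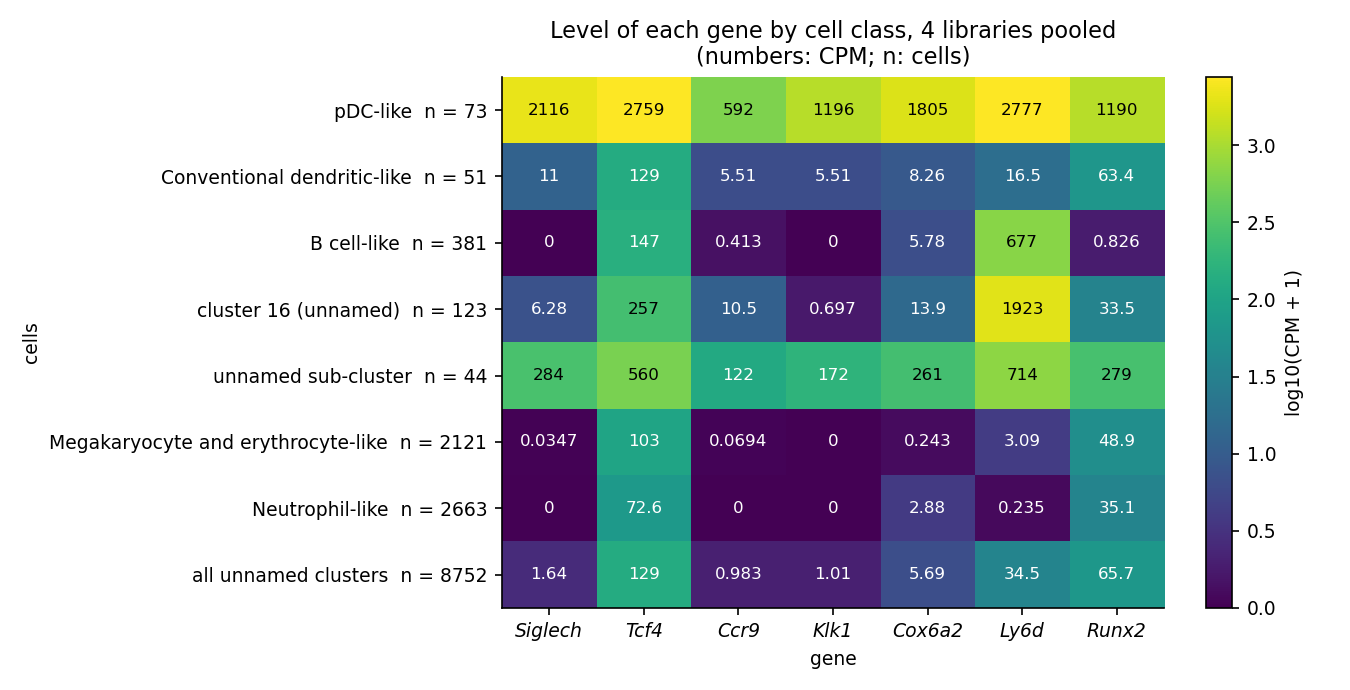
Level of each of the 7 genes (columns) in cell classes, in cluster 16 and in an unnamed sub-cluster of the mixed cluster (rows), 4 libraries pooled, in CPM, with colour on a log10 scale. The pDC-like row is the highest in each column, the unnamed sub-cluster holds intermediate levels of 7 of 7 genes, and Ly6d is also high in cluster 16.

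Siglech, Ccr9 and Klk1 had no UMI in 2663 neutrophil-like cells, a class that should lack them, which allows a share of up to 0.113% of those cells with a UMI at a median of 10970 UMIs, and this limits cells with a UMI and not cells expressing the gene. In pDC-like cells, at a median of 2311 UMIs, a Siglech UMI was found in 98.6% of cells, a Ccr9 UMI in 71.2% and a Klk1 UMI in 63.0%. Tcf4 stood at 69.9 ± 17.1 (SD, n = 4 libraries) in neutrophil-like cells and at 108 ± 26.7 in megakaryocyte and erythrocyte-like cells, 2 classes whose ranges over libraries overlap. Runx2 stood at 39.0 ± 12.8 and 44.1 ± 9.31 in the same classes, and these too overlap. In B cell-like cells Runx2 was nearly absent, at 0.826 CPM over 381 cells, while Tcf4 stood at 147.

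Within pDC-like cells each of the 7 genes stood in the same range in the 2 knockout libraries. Tcf4 stood at 2927 CPM in knockout replicate 1 and 2594 in replicate 2, Siglech at 2270 and 2027, and Cox6a2 at 1809 and 1846. Klk1 stood at 1337 and 1074, Ccr9 at 507 and 712, Ly6d at 2512 and 3016, and Runx2 at 1279 and 1134. No level can be compared with control here, since control replicate 1 had 2 such cells and control replicate 2 had 0.

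The 2 pDC-like sub-clusters differed most in Klk1. It stood at 1662 CPM with a UMI in 81.8% of cells in the larger and at 426 with 34.5% in the smaller, at median depths of 2319 and 2142 UMIs. Ccr9 stood at 693 and 426. Siglech, at 2235 and 1919, and Cox6a2, at 1736 and 1919, were closer. These are single pooled values with no replicate test.

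Ly6d was shared unevenly with clusters led by B lineage genes. Cluster 16, of 123 cells and led by the plasma cell genes Jchain and Mzb1, held 49.0% of Ly6d UMIs at 1923 CPM. It did not meet the naming rule for any class. Cluster 11, a B cell-like cluster of 245 cells led by Cd79a, held 25.1% at 3249 CPM. Cluster 19, the other B cell-like cluster, of 136 cells and led by Igll1, held only 4.03% at 114 CPM. The pDC-like cells held 8.58%. They held 68.8% of Siglech UMIs, 67.1% of Klk1, 50.2% of Ccr9 and 31.5% of Cox6a2, but 2.52% of Tcf4 and 2.22% of Runx2.

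Across the 22 clusters of at least 30 cells, Pearson r of log2(CPM + 1) put Siglech and Klk1 closest, at 0.99. Ccr9 followed Siglech at 0.95 and Cox6a2 followed it at 0.93. Among all genes, Upb1, an enzyme of pyrimidine breakdown, and Cd300c, a surface receptor, were nearest to Siglech after Klk1, at 0.98 each. Tcf4 was most like Slc39a14, a metal ion transporter, at 0.96. Ly6d was most like Fcrla, a B cell Fc receptor-like gene, at 0.96, then Cacna1e and Blnk, a B cell receptor adaptor, at 0.95 each. These genes near Ly6d were also high in pDC-like cells, Fcrla at 207 CPM against 2.20 elsewhere, Cacna1e at 126 against 0.864 and Blnk at 213 against 5.34. Blnk is on the list that named those cells. Runx2 was most like Frmd4a at 0.93, and its r with Ly6d was 0.03. The larger pDC-like sub-cluster was among the 22 and the smaller, of 29 cells, was not. Clusters share libraries, and r is a description over clusters only. For Siglech and Klk1 it rests mainly on the larger pDC-like sub-cluster and the unnamed sub-cluster, at 2235 and 284 CPM of Siglech and 1662 and 172 of Klk1. The next highest of the 22 clusters stood at 6.28 CPM for Siglech and 1.71 for Klk1. Upb1 and Cd300c are on the list that named the pDC-like cells.

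Co-detection per cell followed the same division. The number of the 7 genes with a UMI had a median of 6 in pDC-like cells, and 66 of 73 cells had 5 or more. All 7 genes were found together in 20 of the 73. Outside, 36 of 13968 cells had 5 or more, although the median depth there was higher.

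**Figure D2:**
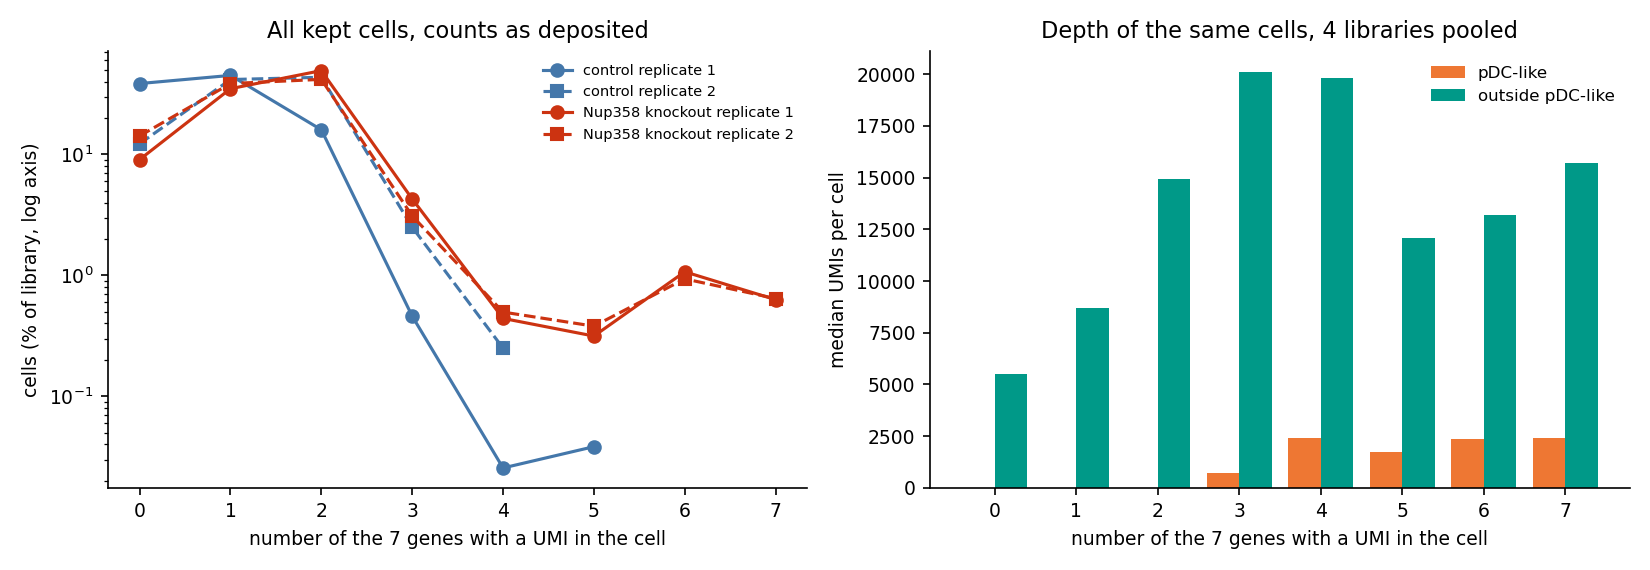
Left: percent of kept cells (log axis) by number of the 7 genes with a UMI, for each library. Right: median UMIs per cell of the same cells, in pDC-like cells (orange) and others (green). Cells with 6 or 7 genes occur in the 2 knockout libraries and in neither control library, and pDC-like cells reach these numbers at the lower depth.

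Cells with 6 or 7 of the genes numbered 0 and 0 in control against 27 and 54 in knockout. Siglech, Ccr9 and Klk1 together were found in 53 cells, 19 in knockout replicate 1 and 34 in replicate 2, and 33 of the 53 were pDC-like. Of the 30 cells outside pDC-like sub-clusters with a Klk1 UMI, 27 had Siglech, 23 had Ccr9 and 30 had Tcf4. Among all cells outside, 0.387% had Siglech, 0.358% had Ccr9 and 59.8% had Tcf4, so the Tcf4 count says little. Siglech and Tcf4 gave the reverse picture: 50 of 54 Siglech cells outside had Tcf4, but 50 of 8352 Tcf4 cells had Siglech.

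**Figure D3:**
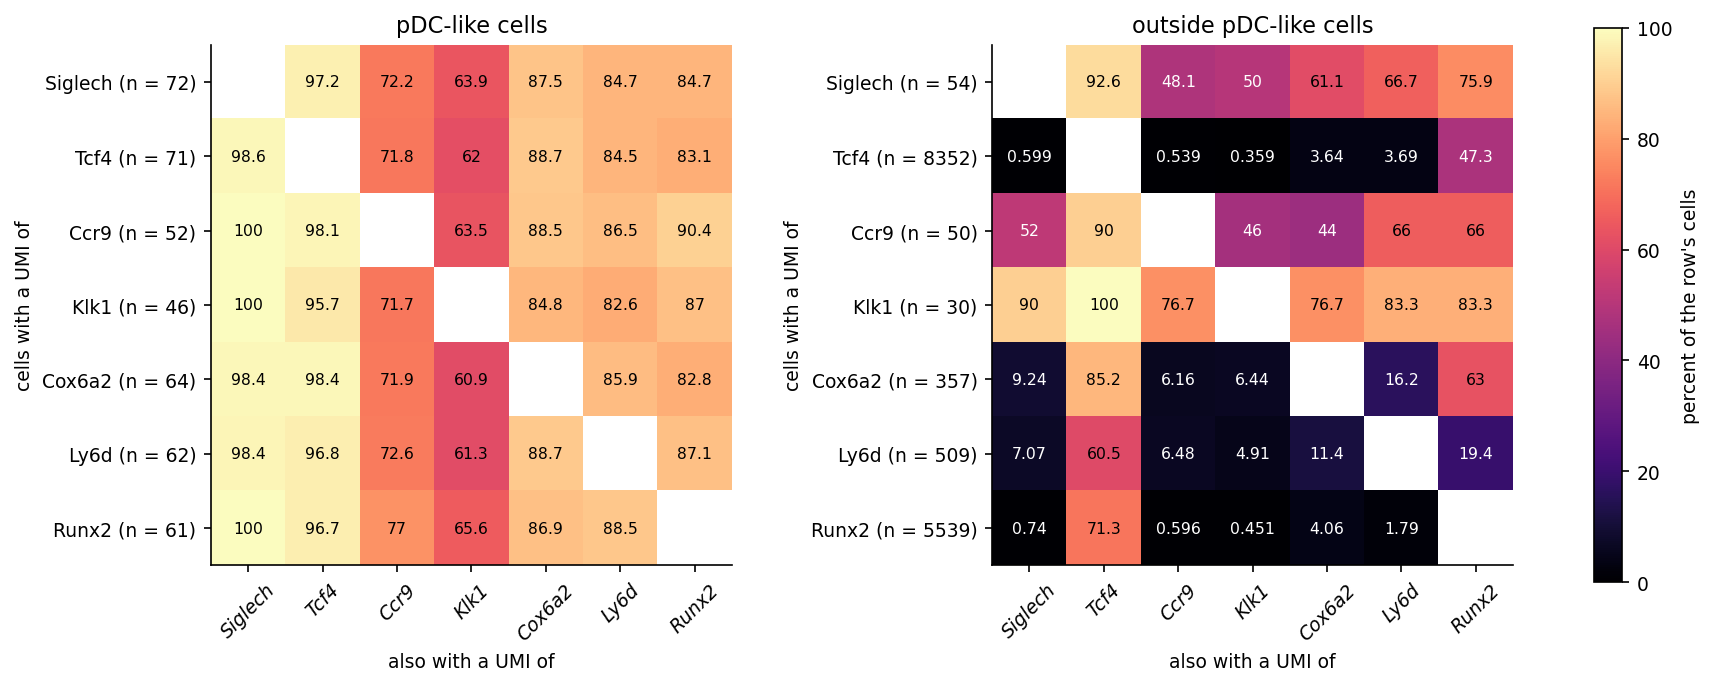
Percent of the cells with a UMI of the row's gene that also had a UMI of the column's gene, in pDC-like cells (left) and in the others (right); n is the number of cells with the row's gene. In pDC-like cells the percentages run high throughout, whereas outside they are high in the Siglech, Ccr9 and Klk1 rows and low in the Tcf4 and Runx2 rows apart from each other.

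The 36 cells outside with 5 or more of the genes held RNA of the progenitor gate. A Kit UMI was found in 25 of them, and 23 lay in another sub-cluster of the mixed cluster, which stayed unnamed. The median depth of the 36 was 13876 UMIs, and that of the 12 of them outside the mixed cluster was 25121. This unnamed sub-cluster held 44 cells with a median of 5739 UMIs, of which 24 had a Kit UMI and 27 a Cd34 UMI, and its levels were Siglech 284, Klk1 172, Ccr9 122, Cox6a2 261, Ly6d 714, Runx2 279 and Tcf4 560 CPM. Its share was 0.0639% and 0% in control against 0.566% and 0.877% in knockout. Doublets were not called or removed, and the part of pairs of a pDC and a progenitor in these cells was not tested.

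pDC-like cells made up 0.0255% of control replicate 1 (2 of 7830 cells, exact 95% interval 0.00309 to 0.0922) and 0% of control replicate 2 (0 of 1200, 0 to 0.307). They made up 1.83% of knockout replicate 1 (29 of 1589, 1.23 to 2.61) and 1.23% of knockout replicate 2 (42 of 3422, 0.886 to 1.66). Both knockout libraries lay above both control libraries. The means differed by 1.51 percentage points, and the exact two-sided permutation test gave p = 0.333, the smallest that 2 libraries against 2 allow. With copied barcodes included the difference was 0.832 points, and 0.748 with each cell thinned to 2000 UMIs before clustering. The latter also left out cells under 2000 UMIs, so that 13480 cells were clustered and 31 were pDC-like. The intervals cover counting error only, and the share is a share of sorted cells that passed the LSK gate.

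Thinned to 2000 UMIs per cell, cells with 3 or more of the 7 genes made up 0.0792% and 0.0840% of cells in control against 2.00% and 1.40% in knockout. Cells under that depth, left out, numbered 254 and 9 in control and 86 and 212 in knockout. The groups did not overlap, the difference was 1.62 percentage points, and p was again 0.333 by the exact permutation test. Without thinning the shares were 0.524%, 2.75%, 6.73% and 5.55%, in the same order of libraries.

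At the same 2000 UMIs, single genes divided in the same way as in the sums. A Siglech UMI was found in 0.0660% and 0% of control cells and in 1.53% and 1.31% of knockout cells, and a Klk1 UMI in 0% and 0% against 1.13% and 0.654%. Ly6d was found in 0.238% and 0.840% against 6.19% and 3.99%. Tcf4, by contrast, was found in 20.7% and 25.0% of control cells and in 21.4% and 20.6% of knockout cells, so the groups overlapped, whereas before thinning its share ran from 48.5% to 78.7% and was lowest in the shallowest library, control replicate 1.

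Summed over all kept cells of a library, 5 of the 7 genes rose in the knockout by the quasi-likelihood F test of edgeR, with Benjamini-Hochberg adjustment over 13779 genes. Of all genes tested, 3.44% were called and 1.37% rose. The median log2 fold change of the 7 genes was 2.46, beside -0.01 over all genes. Siglech, Ccr9 and Klk1 passed the filter on low counts through the knockout libraries, since 1, 1 and 0 of the 2 control libraries reached it, so the count over the 7 genes supports nothing by itself. In summed counts, a larger number of pDC-like cells and more RNA per cell cannot be told apart.

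**Figure D4:**
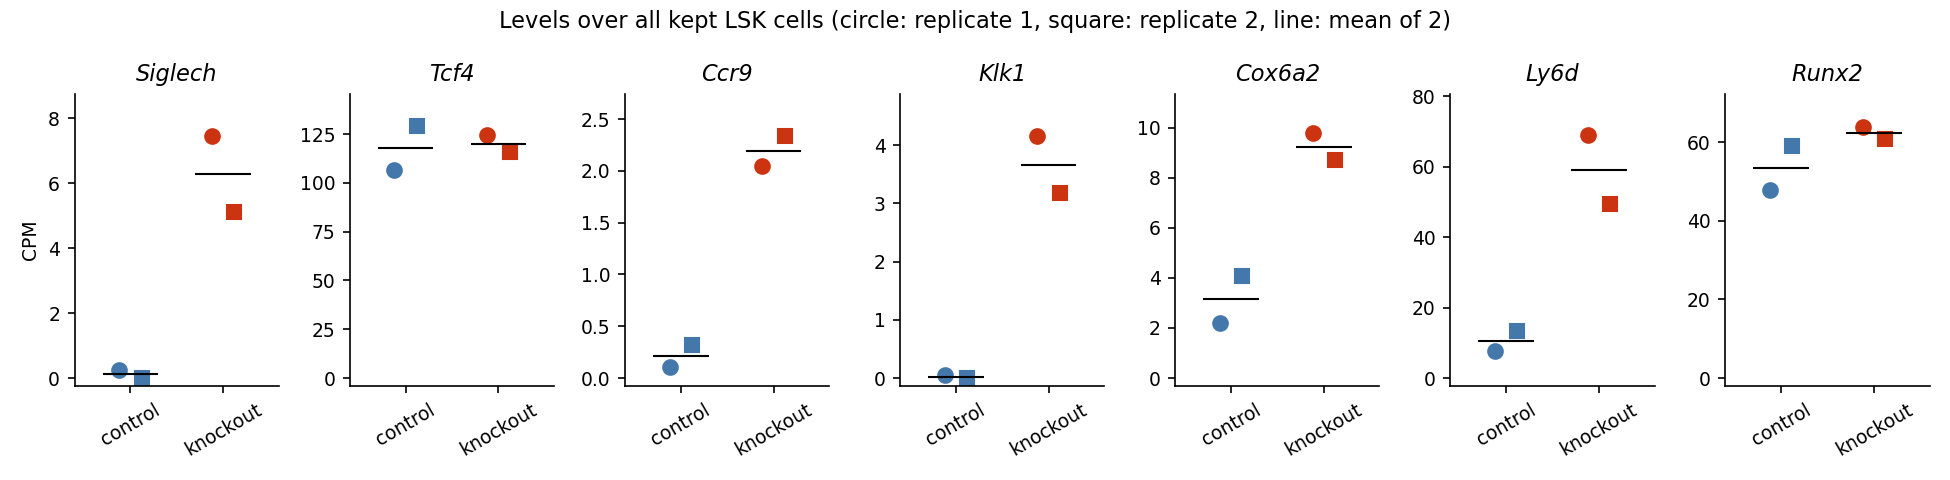
Level of each gene in CPM over all kept cells of each of the 4 libraries, with control in blue and knockout in red, circles for replicate 1, squares for replicate 2 and lines for the mean of 2. The groups are apart for Siglech, Ccr9, Klk1, Cox6a2, Ly6d and Runx2 and overlap for Tcf4, Runx2 overlaps on the normalized levels of the fit, and each panel has its own scale starting at 0.

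Klk1 had 3 and 0 UMIs in control and 136 and 171 in knockout, or 0.0508, 0, 4.15 and 3.18 CPM. The 3 control UMIs lay in 1 cell. The pooled CPM were in a ratio of 92.1 (95% counting interval 31.2 to 449), and edgeR gave a log2 fold change of 6.46 (SE 0.55) with an adjusted p of 0.00626. The fitted value was 9.99 without control replicate 1, which held those 3 UMIs, and 5.08 with copied barcodes included, so its size rests on 1 control cell.

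Siglech had 15 and 0 UMIs in control and 244 and 276 in knockout, or 0.254, 0, 7.45 and 5.13 CPM. Both knockout libraries were far above both control libraries. The log2 fold change was 5.07 (SE 0.58, adjusted p = 0.0102, edgeR). Without control replicate 1 the remaining control library had 0 UMIs and the fitted value was 10.76, so it is no measure of size. A Siglech UMI was found in 8, 0, 41 and 77 cells.

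Ccr9 had 6 and 6 UMIs in control, the second set spread over 6 cells, and 67 and 126 in knockout. These were 0.102, 0.318, 2.05 and 2.34 CPM, without overlap. The log2 fold change was 3.65 (SE 0.52, adjusted p = 0.0205, edgeR).

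Ly6d stood at 7.76 and 13.5 CPM in control and 69.0 and 49.3 in knockout, a log2 fold change of 2.46 (SE 0.30, adjusted p = 0.0129, edgeR). Cox6a2 stood at 2.20 and 4.09 against 9.78 and 8.73, with 1.57 (SE 0.31, adjusted p = 0.0473). The groups did not overlap for either gene. The ubiquitous isoform Cox6a1 stood at 187 and 175 CPM in control and 196 and 193 in knockout.

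Runx2 stood at 47.9 and 58.9 CPM in control and 63.8 and 60.9 in knockout, groups that stood apart narrowly and overlapped on the normalized levels of the fit, at 47.8 and 60.9 against 62.7 and 60.3. On those levels both knockout libraries lay above both control libraries for 5 of the 7 genes and for 26.6% of all genes tested. The Runx2 log2 fold change was 0.18 (SE 0.16, adjusted p = 0.566, edgeR). Tcf4 (chr18:69343356-69689079, plus strand) stood at 107 and 129 in control and 125 and 116 in knockout, and the groups overlapped. Its log2 fold change was -0.01 (SE 0.16, adjusted p = 0.971). pDC-like cells held 4.55% of Tcf4 UMIs and 3.82% of Runx2 UMIs in the knockout libraries, against 70.2% of Siglech, 66.8% of Klk1, 53.4% of Ccr9, 39.2% of Cox6a2 and 9.52% of Ly6d.

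With the pDC-like cells left out, 3 of the 7 genes still rose, where 3.25% of 13765 genes were called, 1.22% higher and 2.03% lower. Siglech had 12 and 0 UMIs in the remaining control cells and 47 and 108 in the knockout cells, with a log2 fold change of 3.56 (SE 0.66, adjusted p = 0.0423, edgeR). Klk1 had 0 and 0 against 20 and 82, at least 30.6-fold higher with 3 counts over the control group as the floor (adjusted p = 0.0345). Ly6d gave 2.34 (SE 0.32, adjusted p = 0.0186). Siglech and Klk1 passed the filter on low counts through the knockout libraries, since 0 of the 2 control libraries reached it for either, so the count of 3 supports nothing by itself. Without control replicate 1, Siglech gave a fitted value of 8.93 against a control library with 0 UMIs. Without control replicate 2 the number was 5, and with copied barcodes included Klk1 gave 3.97 with an adjusted p of 0.0888.

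Ccr9, at 0.102 and 0.318 against 0.704 and 1.25 CPM, gave 2.49 (SE 0.64) with an adjusted p of 0.0841 by edgeR. Control replicate 1 lay under the low-count limit of 0.231 CPM, so Ccr9 passed the filter through the knockout libraries. It passed the test with the replicate number as a block (2.32, adjusted p = 0.00544, edgeR). The fitted value was 3.25 without control replicate 2 and 2.78 without knockout replicate 1. Ccr9 was called in 5 alternative runs and not called in 9. Cox6a2 gave 0.82 (SE 0.34, adjusted p = 0.223, edgeR), and 1.34 without control replicate 2. It was called in 2 alternative runs and not called in 12. Runx2 gave 0.13 (adjusted p = 0.695) and Tcf4 -0.08 (adjusted p = 0.816). Whether any gene's change differed between all cells and the cells outside was not tested, since the second set lies within the first. With the whole mixed cluster left out, the unnamed sub-cluster included, Klk1 kept an adjusted p of 0.0424 by edgeR and Siglech gave 3.75 with an adjusted p of 0.0676. The mixed cluster held 90% of Klk1 UMIs. The rest lay in 4, 2, 3 and 1 cells of clusters 7, 9, 15 and 16. Control had 0 Klk1 UMIs there, so Klk1 entered the test through the knockout libraries and this call supports nothing by itself.

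**Figure D5:**
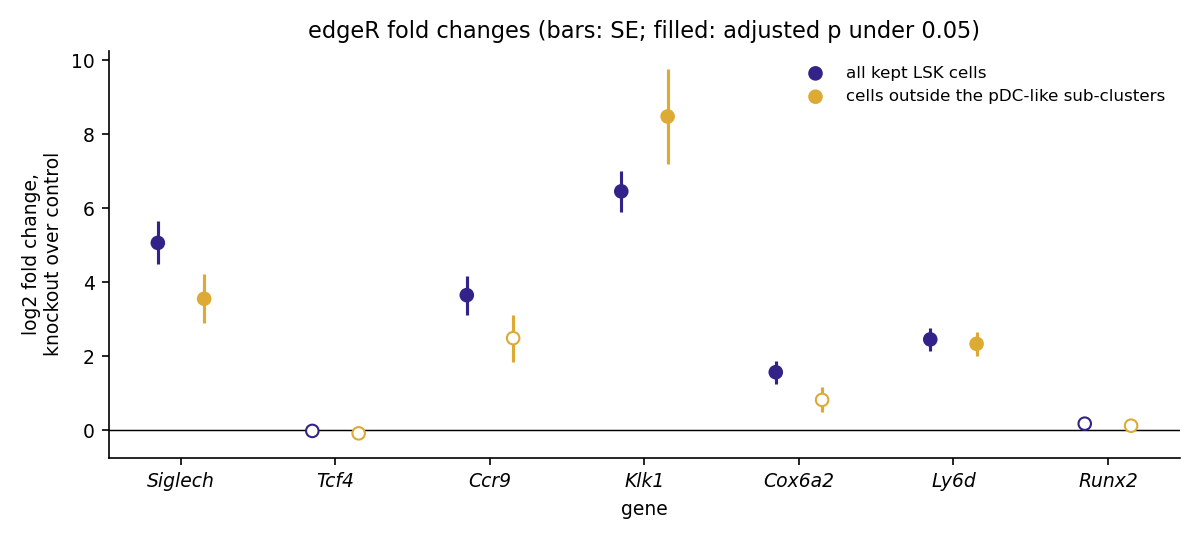
log2 fold change of knockout over control with its SE for each gene, over all kept cells (blue) and outside the pDC-like cells (yellow); filled points have an adjusted p under 0.05. Filled points number 5 over all cells and 3 outside, and the fitted value of Klk1 outside rests on control libraries with 0 UMIs and is no measure of size.

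Ly6d and the summed B cell list both rose from control to knockout, but not in step between the 2 knockout libraries. Ly6d stood at 67.8 normalized CPM in knockout replicate 1 and 48.8 in replicate 2. The summed B cell list went the other way, at 151 and 447 CPM, as did the share of B cell-like cells. B cell-like cells made up 0.0766% and 0.25% of cells in control against 5.85% and 8.15% in knockout. Of B cell genes 6 of 10 rose, where 1.37% of all genes tested rose. Among the 6 were Pax5 and Ms4a1 (CD20), the latter at 0.0675 and 0.548 against 11.2 and 9.06 normalized CPM. Cluster 16 made up 0.192% and 0.5% against 2.96% and 1.61%, and cluster 11 0.0511% and 0.0833% against 5.29% and 4.56%. These clusters, rich in Ly6d, and Ms4a1 were higher in knockout replicate 1, as Ly6d was. Cluster 19, at 0.0255% and 0.167% against 0.566% and 3.59%, was higher in knockout replicate 2. So was Pax5, at 4.83 and 14.5 normalized CPM in the knockout libraries. With the B cell-like clusters left out as well as the pDC-like cells, Ly6d gave a log2 fold change of 1.94 (adjusted p = 0.0224, edgeR). The part of the cells of cluster 16 in that value was not tested.

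Of the 14 regulators of pDC fate examined, Spib rose, Irf8 fell and 12 did not pass the test, with a median log2 fold change of 0.05, where 3.44% of all genes were called, 1.37% higher and 2.07% lower. DESeq2 called 3 of the 14, Zeb2 in addition. Spib, an Ets factor of pDCs and B cells, stood at 0.186 and 0.110 against 4.38 and 6.67 normalized CPM, a log2 fold change of 5.05 (adjusted p = 0.00626, edgeR). It stood at 535 CPM in pDC-like cells and 2.61 elsewhere, and outside them it gave 4.85 (adjusted p = 0.00856). In both sets 0 of the 2 control libraries reached the low-count limit of 0.231 CPM for Spib, which entered the test through the knockout libraries. Irf8 stood at 4352 against 95.4 and yet fell by 1.39 on the log2 scale over all cells (adjusted p = 0.0243), and by 1.66 outside pDC-like cells (adjusted p = 0.0148). Outside them its values were 165 and 113 in control and 45.6 and 42.4 in knockout, without overlap. Irf8 is on the list that named the pDC-like cells, and 71 of those 73 were knockout cells. Leaving them out enlarges its fall by construction.

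In level, 7 of the 14 regulators were at least 2-fold higher in pDC-like cells. Of the 14, Irf8, Spib, Zeb2 and Bcl11a were on the list that named these cells. Bcl11a, a zinc finger factor needed for pDC development, stood at 926 CPM against 152 outside, and Zeb2, which represses Id2, at 736 against 151. The E protein Tcf12 stood at 299 against 57.9, Ikzf1 (Ikaros) at 414 against 109 and the Mtg16 corepressor gene Cbfa2t3 at 282 against 136. The E protein Tcf3 stood at 92.0 against 63.3, and the cytokine receptor Flt3 at 80.5 against 42.6. In the 51 conventional dendritic-like cells Cbfa2t3 stood at 584 CPM and Flt3 at 88.1, above the pDC-like cells. Bcl11a stood there at 149, Zeb2 at 113, Tcf12 at 60.6, Ikzf1 at 105 and Tcf3 at 30.3, below the pDC-like cells. Id2 and Id3, inhibitors of E proteins, had 1 and 4 UMIs in the pDC-like cells and stood at 11.5 and 12.6 CPM in the others. The level that 3 counts would give in the pDC-like cells, 17.2 CPM, lies above both, so these counts do not show low Id2 or Id3. Runx1, at 138 against 136, Runx3, at 80.5 against 90.2, and their partner Cbfb, at 51.7 against 60.1, were close to the level of other cells, unlike Runx2. Knockout over control, Zeb2 gave -0.81 on the log2 scale (adjusted p = 0.0674 by edgeR, with a call by DESeq2 and, at 0.0144, with the replicate block). Flt3 gave -0.63 (adjusted p = 0.238 by edgeR, 0.171 by DESeq2 and 0.0864 by edgeR with the replicate block). By edgeR Flt3 was called with no filter on low counts (adjusted p = 0.0117) and with the replicate numbers crossed between genotypes as a block (adjusted p = 0.0475). It gave -1.01 without control replicate 1 and -0.14 without control replicate 2.

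The wider pDC list did not move as one. Of its 29 genes tested, 4 rose and 3 fell, with a median of 0.05, where 1.37% of all genes rose and 2.07% fell. Outside pDC-like cells 1 rose and 5 fell of 27 tested, where 1.22% of all genes rose and 2.03% fell. The same list named the cells left out, and 71 of those 73 were knockout cells. Leaving them out lowers these genes in the knockout by construction, so the count of 5 supports nothing by itself. Spib, Grm8 and Upb1 were among the 4 that rose over all cells. Grm8, a glutamate receptor gene, was at 0 in both control libraries, and Upb1 gave 3.29 (adjusted p = 0.0167, edgeR). For Spib, Grm8 and Upb1, 0 of the 2 control libraries reached the low-count limit. They could be tested only because they were high in the knockout, so the count of 4 supports nothing. Irf8, Lag3 and Ly6c2 fell. Of 13 genes tested in the Toll-like receptor and interferon list, 0 rose by edgeR or by DESeq2. An unadjusted p under 0.05 by edgeR was found for 4 of them. Such a p was found for 14 of the 29 genes of the wider pDC list and for 2986 of all 13779 genes tested. Tyrobp, the DAP12 adaptor through which Siglec-H signals, fell by 1.49 on the log2 scale (adjusted p = 0.00768, edgeR). Tyrobp is also expressed in myeloid cells, and 8 of 9 neutrophil and 4 of 7 monocyte genes fell in the same libraries, Elane by 5.42. Their part in the fall of Tyrobp, Irf8 and Ly6c2 was not tested.

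Among conventional dendritic genes 4 of 11 rose, and these were the MHC class II genes H2-Aa, H2-Ab1 and H2-Eb1 and the invariant chain Cd74, which B cells also express. Of basophil and mast cell genes 3 of 5 rose. Beside both counts, 1.37% of all genes tested rose. Prss34, 1 of the 3, stood at 2.60 and 0 normalized CPM in control and passed the low-count filter through the knockout libraries. In the early lymphoid, T cell, NK cell, stem cell and megakaryocyte and erythrocyte lists 0 genes passed the threshold by edgeR or by DESeq2, and an unadjusted p under 0.05 by edgeR was found for 2 early lymphoid genes, 1 megakaryocyte and erythrocyte gene and 0 of the rest. Kit and Ly6a, the genes of the gate, gave 0 calls by edgeR or by DESeq2, and 1 of the 2 had an unadjusted p under 0.05. Of all 13779 genes tested, 2986 had an unadjusted p under 0.05 by edgeR.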

How the data were processed

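The files hold UMI counts per gene and barcode for 4 libraries, made by the authors with Cell Ranger 3.1 against GRCm38 (mm10 per the labels) from 10x 3′ libraries and deposited without normalization. The 7 genes and the lists were chosen with earlier results of these data known. Named genes were the 7, the 14 regulators, up to 3 genes per other list by size of change among those called, and the genes most alike across clusters.

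Kept cells had at least 200 genes and at most 10% mitochondrial UMIs and were not copied barcodes. They were clustered with scanpy 1.11.5 (10000 UMIs per cell, 2000 variable genes without the 7, 10 principal components, 15 neighbours, Leiden resolution 1), and the mixed cluster again. Doublets were neither called nor removed. A name needed 3 markers at 2-fold, a mean log2 fold of 2, a lead of 1 and 20 cells. In both pDC-like sub-clusters depth was under that of their libraries, and other pDC markers were among the 10 leading genes.

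Counts were summed per library and tested with edgeR 4.0.16 (TMM, filterByExpr, quasi-likelihood, Benjamini-Hochberg at 0.05), after a check on simulated data. DESeq2 1.42.0 was an alternative. Library totals of kept cells ran from 18846887 to 59033602 UMIs. Each library is 1 pool of mice, and p-values measure the spread between pools. Promoters came from RefSeq. The level within pDC-like cells was not tested, since the control libraries held fewer than 10 of them. Some items are not reported here.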

Additional observations from a re-analysis of the deposited data

How the results depend on the processing

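Over all cells the 5 calls among the 7 genes held under each alternative run. The number of genes called of all tested was 474 and became 946 with DESeq2, 1933 with no filter on low counts and 372 to 2890 with 1 library left out, 2890 without control replicate 1 and 1932 without control replicate 2. Outside pDC-like cells 447 became 933, 1935 and 361 to 3284 (3284 and 2319 without those 2 libraries), and the 3 genes called of the 7 became 5 with no filter, 3 to 5 with 1 library left out and 5 without control replicate 2, with Ccr9 and Cox6a2 added. With all barcodes Klk1 outside lost its call (3.97, adjusted p = 0.0888 by edgeR). Why these counts move was not tested. Deviations of same-numbered replicates from their group means had r = -0.12 over 13779 genes, while clusters 12, 13, 15 and 18 held most cells of both replicate 2 libraries and few of either replicate 1 library. The labels give no pairing, and whether the numbers mark one was not tested. The replicate block gave 1257 calls over all cells and 1261 outside, and the crossed pairing 1735 and 1535. Outside, the block and the crossed pairing each called 4 of the 7 genes, Ccr9 added. Signs were not fixed for some genes that were not called in the main fit. Id2, at 0.47 in the main fit, moved to 1.21 without control replicate 2, which is not near 0. With 1 library left out Tcf4 ran from -0.17 to 0.15 over all cells (0.030 with all barcodes) and from -0.24 to 0.09 outside, Runx2 outside from -0.040 to 0.30, Bcl11a from -0.17 to 0.28, Tcf3 from -0.017 to 0.14, Tcf12 from -0.0051 to 0.12, Id2 from -0.082 to 1.21 and Id3 from -0.23 to 1.17.

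The difference in pDC-like share, 1.51 points, was 0.832 with all barcodes, 0.748 with cells thinned to 2000 UMIs before clustering, where cells under 2000 UMIs were left out too (13480 clustered, 31 pDC-like), and 1.21 to 1.81 with 1 library left out. The difference in cells with 3 or more of the genes, 1.62 points, was 1.38 with all barcodes, 4.51 unthinned, 1.51 at 1000 UMIs, 3.47 for 2 or more genes and 1.32 to 1.91 with 1 library left out. With 2 libraries against 2, each of the settings above gave p = 0.333 by the exact permutation test, the smallest it allows, so this p says nothing about stability. With 3 cells as the floor, a count of 0 allows a share of up to 0.0383% and 0.25% of kept cells in control. In knockout it allows up to 0.189% and 0.0877%.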
